A study of Mus musculus with 12 samples.

Results

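The genes described here mark the pyramidal cell fields of the hippocampus. They are 9 of the 23183 gene symbols listed in the data, 6 of field CA1 (*Wfs1*, *Fibcd1*, *Man1a*, *Spink8*, *Mpped1* and *Pou3f1*) and 3 of fields CA2 and CA3 (*Amigo2*, *Bok* and *Iyd*), taken by symbol from each of 12 libraries. The list was chosen from field markers with an earlier analysis of these values known, and the comparisons it was drawn up for are hippocampus with cortex in sham-irradiated mice and irradiated with sham-irradiated mice in the hippocampus. No value served as a cutoff, so there are no genes just inside or outside one. For those comparisons the 9 genes are therefore described by their values, no p is given for any of them, and the calls of the fit over all genes are counted only beside their share of all genes. They were tested in 2 comparisons that the choice did not name, hippocampus with cortex in irradiated mice and irradiated with sham-irradiated mice in the cortex.

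Male C57BL/6 mice received 10 Gy of cranial irradiation in a single session (IR) or a sham procedure (Con), and RNA of the cortex and of the hippocampus was sequenced 3 months later. The mice were bought at 7 weeks of age and kept for 1 week before the procedure. Each of the 4 groups, cortex Con, cortex IR, hippocampus Con and hippocampus IR, had 3 libraries. The values are FPKM, fragment counts divided by transcript length and by library size, so levels can be compared between genes. Whether each library came from a different mouse is not stated, and p values here measure the spread between libraries.

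The hippocampus is folded so that signals pass from the dentate gyrus to CA3 pyramidal cells and on to those of CA1, with the small field CA2 between them. CA1 sends the main output of the circuit and is needed for spatial and contextual memory, CA3 cells are linked to each other by recurrent contacts, and CA2 takes part in social memory. Pyramidal cells of the fields look alike but differ in the genes they express, which is why a set of field markers can follow each field in RNA from whole tissue. In such bulk RNA, fewer cells of a field and less RNA per cell cannot be told apart.

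Promoters are shown for *Fibcd1* and *Iyd*, to show how unlike they are in base composition. *Fibcd1* is the CA1 marker with the highest ratio of hippocampus to cortex with all Con libraries. Without cortex Con 2 the ratio was 24.9 for *Fibcd1* and 33.8 for *Spink8*. *Iyd* is the CA2/CA3 marker with the lowest level in the cortex. RefSeq gave windows from 250 bases before to 50 bases after the start for 7 of the 9 genes, 8 windows in all on GRCm38.p6, and none was matched for *Pou3f1* or *Spink8*. The 250 bases before the start of *Fibcd1* (chr2:31846006-31846255, minus strand) and of *Iyd* (chr10:3540024-3540273, plus strand) are given 5′ to 3′, with capitals for matches to the motifs listed after them.
*Fibcd1*: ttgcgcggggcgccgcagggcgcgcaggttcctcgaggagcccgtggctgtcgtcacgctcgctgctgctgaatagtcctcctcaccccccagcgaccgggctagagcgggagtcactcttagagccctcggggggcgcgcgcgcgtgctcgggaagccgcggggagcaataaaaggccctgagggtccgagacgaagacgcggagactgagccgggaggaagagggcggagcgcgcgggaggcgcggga
*Iyd*: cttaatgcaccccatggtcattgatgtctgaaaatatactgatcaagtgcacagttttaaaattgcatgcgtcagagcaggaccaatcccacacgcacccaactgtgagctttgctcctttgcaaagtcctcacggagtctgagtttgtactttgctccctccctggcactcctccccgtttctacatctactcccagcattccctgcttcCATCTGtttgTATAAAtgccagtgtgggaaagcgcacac
The window of *Fibcd1* was 74.3% G or C with 46 CpG, and that of *Iyd* 49.0% with 6 CpG, beside medians of 52.7% and 7 CpG over all 32851 windows of the mouse. Motifs were searched on both strands, and the motifs overlap in no member window. The POU factor octamer ATGCAAAT was in none of the 8 member windows and in 1.74% of all windows, and the E-box CAGCTG was also in none of the 8 and in 16.3% of all. The E-box CAGATG, which reads CATCTG on the other strand, was in 2 of the 8 windows, *Wfs1* and *Iyd*, and in 17.15% of all. The TATA box TATAAA was in 1 of the 8, that of *Iyd*, where it began 29 bases before the RefSeq start, and in 13.62% of all. The *Iyd* start of RefSeq lies 34 bases inside the gene as drawn by GENCODE M21, whereas the *Fibcd1* starts are the same base.

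The libraries were alike in scale. The total of FPKM ranged from 359773 to 393447, libraries lay at 0.995 to 1.02 of their common geometric mean by the median gene, and 0 pairs held identical values. Depth in reads is unknown, as the files used hold no counts. *Prox1* of dentate granule cells was at 1.69 to 2.23 FPKM in the cortex and 14.4 to 21.1 in the hippocampus. The summed FPKM of 8 cortical layer genes was 124 to 140 in the cortex and 52.0 to 69.5 in the hippocampus. *Etv1*, the most abundant of them in hippocampus Con, was at 18.6 to 22.7 in the cortex and 17.5 to 28.8 in the hippocampus. Column names end differently in the cortex and hippocampus files, so the tissue and a possible difference between processing runs cannot be told apart. Libraries of 3 groups stood apart in choroid plexus RNA. The summed FPKM of 5 choroid plexus genes was 1060 in hippocampus Con 2, 1650 in hippocampus IR 1 and 439 in cortex IR 2, and 4.50 to 66.0 in the other 9 libraries. Calls in the tested comparisons that change without these libraries are given both ways, but not every difference that moves.

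The CA1 markers differed in how far they set the hippocampus apart. In Con libraries, *Fibcd1* and *Spink8* were more than 10-fold higher in the hippocampus, *Man1a* and *Pou3f1* 2- to 4-fold higher, *Wfs1* overlapped between the tissues and *Mpped1* was lower in the hippocampus. All 3 CA2/CA3 markers were higher in the hippocampus. Of the 9 genes, 7 were called higher and 1 lower at an adjusted p under 0.05, beside 19% of the 14169 genes tested called higher and 17.3% called lower. As the genes were chosen with this comparison in view, nothing is read from that count, and *Iyd* and *Spink8* passed the filter on low values there only with the hippocampus libraries. The median log2 difference of the 9 was 1.55 (hippocampus minus cortex, on log2(FPKM + 1)), and that of all genes 0.02.

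**Figure D1:**
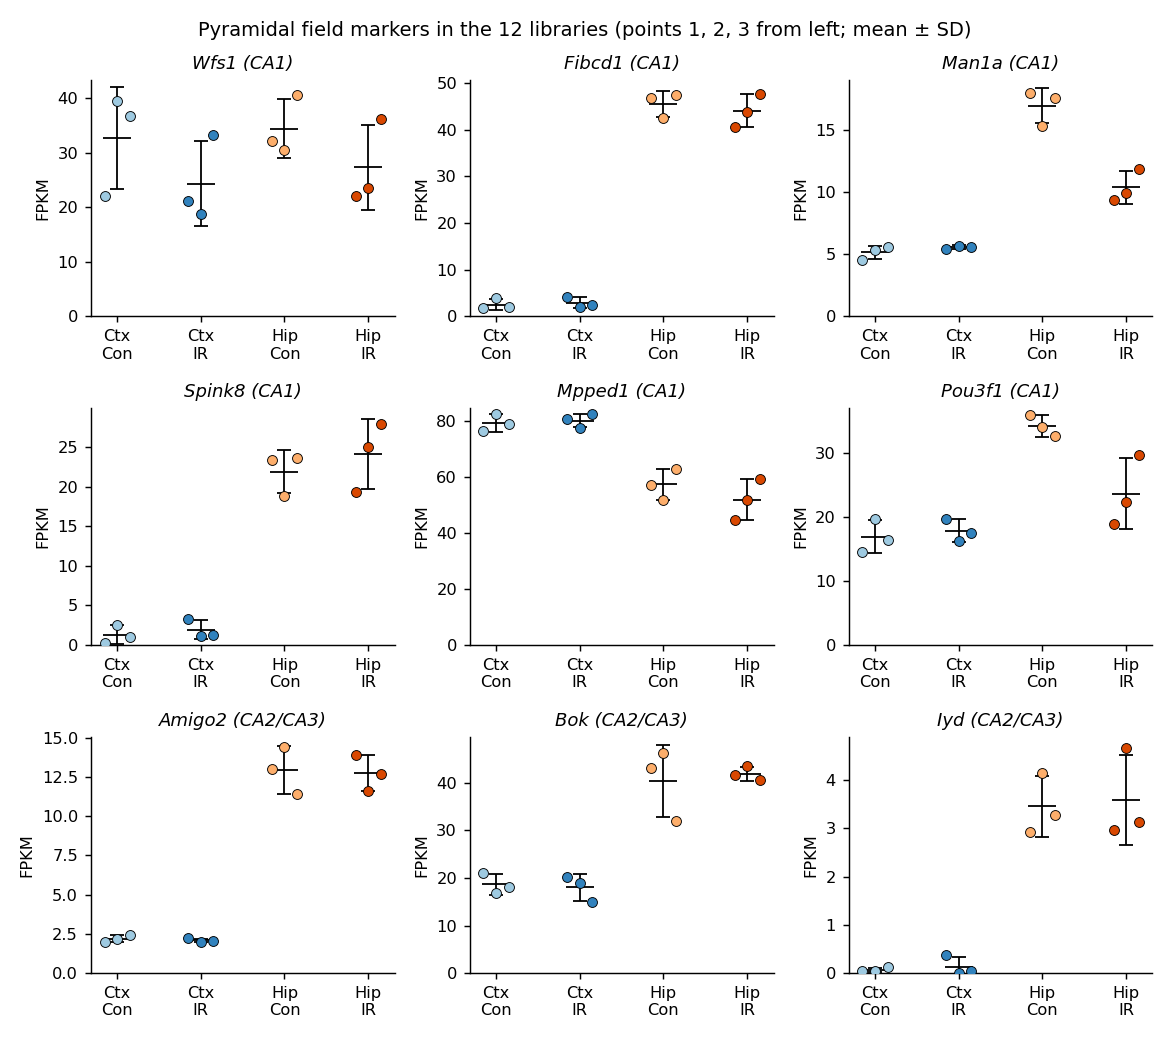
FPKM of the 9 field markers (vertical axes, each from 0) in the 12 libraries by group, with points for libraries 1, 2 and 3 from left to right and a bar for the mean ± SD of 3 (bars that would pass below 0 end at the axis). *Fibcd1*, *Spink8*, *Amigo2*, *Bok* and *Iyd* are high in the hippocampus in both treatments, *Wfs1* overlaps between all groups, and *Man1a* is at 15.4 to 18 FPKM in hippocampus Con and at 9.38 to 11.9 in hippocampus IR.

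*Fibcd1* encodes a membrane receptor that binds chitin through a fibrinogen-like domain. It was at 1.73, 3.87 and 1.93 FPKM in cortex Con 1, 2 and 3, and at 4.25, 2.01 and 2.54 in cortex IR. In the hippocampus it was at 46.8, 42.4 and 47.5 in Con, and at 40.6, 43.8 and 47.7 in IR. No hippocampus library came near a cortex library. The ratio of the means was 18.2 in Con, with a log2 difference of 3.78 ± 0.20 (SE, n = 3 per group), which ranked 7 in size among the genes tested. In order of level the groups were hippocampus Con, hippocampus IR, cortex IR and cortex Con, and within each tissue the neighbours overlapped.

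*Spink8* belongs to the Kazal-type inhibitors of serine proteases. It was at 0.239, 2.57 and 1.06 FPKM in cortex Con, and at 3.29, 1.14 and 1.27 in cortex IR. Hippocampus Con held 23.4, 18.8 and 23.6, and hippocampus IR 19.3, 25.0 and 28.0. The tissues did not overlap, and the ratio of the means in Con was 17.0 (log2 difference 3.45 ± 0.37, rank 11). It rested on low cortex values and was 33.8 without cortex Con 2 and 12.1 without cortex Con 1. The log2 difference was 3.07 to 3.84 over the libraries left out in turn. The order of levels was hippocampus IR, hippocampus Con, cortex IR and cortex Con, again with overlap within each tissue. *Spink8* and *Fibcd1* had the same order over the 6 cortex libraries, with IR 1 highest, then Con 2, and Con 1 lowest. With the tissue means removed, their Pearson r on log2(FPKM + 1) was 0.93 over the 12 libraries, which share tissue and treatment. *Iyd* was highest in cortex IR 1 as well, and so was *Neurod6*, a transcription factor of excitatory neurons (45.8, next to 31.0 to 40.7 in the other cortex libraries), whereas *Prox1* was at 2.23 FPKM both in cortex IR 1 and in cortex Con 3.

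*Man1a* encodes a Golgi mannosidase that trims the sugar chains of glycoproteins. It was at 4.58, 5.36 and 5.58 FPKM in cortex Con and at 5.42, 5.72 and 5.62 in cortex IR. In the hippocampus it was at 18, 15.4 and 17.6 in Con and at 9.38, 9.94 and 11.9 in IR. Its level therefore fell in 3 separate ranges, with hippocampus Con above hippocampus IR and both above the cortex groups, which overlapped. The ratio of hippocampus to cortex was 3.29 in Con (log2 difference 1.55 ± 0.10) and 1.86 in IR.

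*Pou3f1*, a gene of a single exon, encodes a POU-domain transcription factor. It was at 14.6, 19.8 and 16.5 FPKM in cortex Con and at 19.8, 16.3 and 17.6 in cortex IR. It was at 36.0, 34.2 and 32.7 in hippocampus Con, and at 18.9, 22.4 and 29.8 in hippocampus IR. Hippocampus Con stood above every other library, and hippocampus IR reached down into the range of the cortex. The ratio of the means in Con was 2.02 (log2 difference 0.98 ± 0.11).

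*Wfs1* encodes wolframin, a protein of the endoplasmic reticulum membrane that is lost in Wolfram syndrome, and it is also made by cells of the upper cortical layers. It was at 22.0, 39.4 and 36.7 FPKM in cortex Con and at 21.1, 18.7 and 33.2 in cortex IR. Hippocampus Con held 32.1, 30.4 and 40.5, and hippocampus IR 22.1, 23.6 and 36.2. From the highest mean to the lowest the order was hippocampus Con, cortex Con, hippocampus IR and cortex IR, with overlap between every pair of neighbours. The log2 difference between the tissues in Con was 0.10 ± 0.22. In the cortex *Wfs1* split into low values in Con 1, IR 1 and IR 2 and higher values in Con 2, Con 3 and IR 3. *Necab2*, a gene that marks CA2 and was on the CA2 list, was low in the same 3 cortex libraries (12.1 in Con 1, 13.3 in IR 1 and 13.2 in IR 2, against 20.9 to 27.8 in the others). *Pcp4* of the same list was not low in them (252, 286 and 266, against 217 to 251). What this split has to do with the *Wfs1* values was not tested.

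*Mpped1* encodes a protein with a metallophosphoesterase domain. It was at 76.5, 82.8 and 79.2 FPKM in cortex Con and at 80.7, 77.7 and 82.5 in cortex IR. In hippocampus Con it was at 57.3, 51.9 and 63.1, and in hippocampus IR at 44.8, 51.8 and 59.4. Every hippocampus library was below every cortex library, so in these tissues *Mpped1* did not set the hippocampus apart by a higher level. The cortex mean was 1.38 times the hippocampus mean in Con (log2 difference -0.47 ± 0.09). The cortex groups overlapped, as did the hippocampus groups.

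*Amigo2* encodes an adhesion protein with leucine-rich repeats and is used as a marker of CA2. It was at 2.02, 2.20 and 2.44 FPKM in cortex Con and at 2.23, 2.00 and 2.05 in cortex IR. It was at 13.0, 14.4 and 11.4 in hippocampus Con and at 13.9, 11.6 and 12.7 in hippocampus IR. The tissues were far apart, and Con and IR overlapped in each. The ratio of the means in Con was 5.80 (log2 difference 2.10 ± 0.10).

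*Bok* encodes a cell death protein of the BCL-2 family. It was at 21.0, 16.8 and 18.2 FPKM in cortex Con and at 20.3, 19.0 and 14.9 in cortex IR. It was at 43.1, 46.3 and 31.9 in hippocampus Con and at 41.6, 43.4 and 40.6 in hippocampus IR. Hippocampus Con 3 was the lowest library of the hippocampus for *Bok*, but it was still above all cortex libraries. The ratio of the means in Con was 2.16 (log2 difference 1.06 ± 0.14), and treatments overlapped in both tissues.

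*Iyd* encodes iodotyrosine deiodinase, an enzyme that recovers iodide in the thyroid. It was the least abundant of the 9, at 0.0417, 0.0414 and 0.124 FPKM in cortex Con and at 0.371 and 0.0404 in cortex IR 1 and IR 3, and it was listed at 0 in cortex IR 2. It was at 2.93, 4.15 and 3.28 in hippocampus Con and at 2.97, 4.66 and 3.14 in hippocampus IR. The hippocampus libraries were all above the cortex libraries, with a log2 difference in Con of 2.05 ± 0.12. No ratio is given, since the cortex values are close to 0, and the pseudocount of 1 makes the log2 difference of so low a gene smaller than the change in FPKM. With a pseudocount of 0.1 the log2 difference was 4.41 in Con and 4.27 in IR.

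Hippocampus and cortex were then tested in IR libraries, which the Con comparison does not use. The hippocampus IR libraries do enter the comparison of IR with Con in the hippocampus, so the test is separate from the Con comparison but not from that one. All 9 genes passed the filter on low values, but *Iyd* did so through the hippocampus alone, which fixes its direction, so it is described and not counted here. In limma with Benjamini-Hochberg adjustment over 14173 genes, 5 of the other 8 were higher in the hippocampus (*Fibcd1*, *Man1a*, *Spink8*, *Amigo2* and *Bok*) and 1 was lower (*Mpped1*), beside 23.7% of all genes called higher and 23% called lower. The median log2 difference of the 8 was 0.98 and that of all genes 0.

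*Fibcd1* was 15 times as high in the hippocampus IR mean, 44.0 ± 3.56 FPKM, as in the cortex IR mean of 2.93 ± 1.17 (SD, n = 3). Its log2 difference was 3.56 ± 0.19 with an adjusted p of 5.75e-06 from limma. *Spink8* followed with a ratio of 12.7, from 1.90 ± 1.21 to 24.1 ± 4.39 FPKM (log2 difference 3.17 ± 0.29, adjusted p = 0.000213). Its ratio was 20 without cortex IR 1 and 10.6 without cortex IR 2. *Fibcd1* and *Spink8* ranked 7 and 18 in size among all tested, next to 7 and 11 in Con. *Amigo2* was at 12.8 ± 1.18 in hippocampus IR and 2.09 ± 0.121 in cortex IR, a ratio of 6.09 (log2 difference 2.15 ± 0.08, adjusted p = 1.16e-07). *Bok* was at 18.1 ± 2.81 and 41.9 ± 1.44, a ratio of 2.31 (log2 difference 1.18 ± 0.10, adjusted p = 1.75e-05). For *Iyd* the log2 difference was 2.01 ± 0.17, given as a description.

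*Man1a* was higher in the hippocampus in IR too, by a log2 difference of 0.79 ± 0.08 (adjusted p = 6.86e-05 from limma), with 5.59 ± 0.151 FPKM in the cortex and 10.4 ± 1.31 in the hippocampus. *Mpped1* was lower in the hippocampus by -0.63 ± 0.09 (adjusted p = 0.000469), the cortex mean being 1.54 times the hippocampus mean. Neither *Wfs1* (log2 difference 0.17 ± 0.28, 95% interval -0.52 to 0.86, adjusted p = 0.655) nor *Pou3f1* (0.37 ± 0.15, adjusted p = 0.0826) passed. The outcome for *Pou3f1* changed with the library left out. Without hippocampus IR 1, a library rich in choroid plexus RNA, the log2 difference was 0.51 and passed. It was 0.45 and passed with cortex IR 2 left out as well, whereas without hippocampus IR 3 it was 0.19 and did not pass. *Wfs1* turned to -0.05 without hippocampus IR 3.

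**Figure D2:**
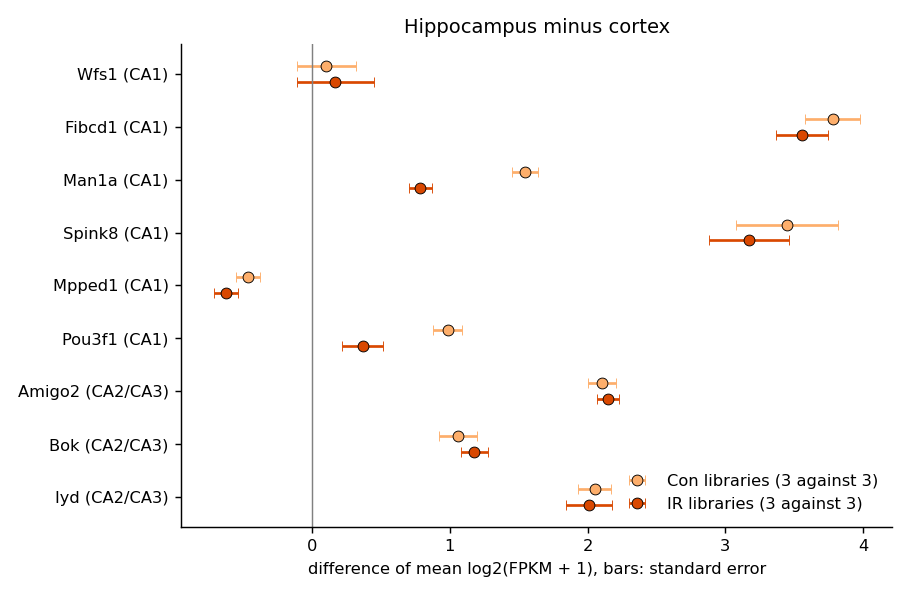
Difference between hippocampus and cortex for the 9 field markers (horizontal axis, difference of mean log2(FPKM + 1); bars, standard error; 3 against 3 libraries) in Con and in IR libraries. *Fibcd1* and *Spink8* lie above 3 in both, *Mpped1* lies below 0 in both, and *Man1a* and *Pou3f1* lie at 1.55 and 0.98 in Con but at 0.79 and 0.37 in IR.

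Other genes of the fields, from lists drawn up with earlier results known, were unequal as well. In IR libraries, genes of these lists under 0.5 FPKM in any library were left out of the counts, since passing the filter through a single tissue fixes the direction. The counts stand beside 23.7% of all genes called higher and 23% called lower. Of 5 other CA2 genes, 3 were higher in the hippocampus and 1 lower (median log2 difference 0.73). *Pcp4*, a calmodulin-binding protein used to mark CA2, was the lower one (-0.66 ± 0.12, adjusted p = 0.00188 from limma), with 217 to 286 FPKM in cortex IR and 149 to 184 in hippocampus IR. *Necab2*, a calcium-binding protein, was higher by 1.72 ± 0.16 (adjusted p = 8.03e-05). Of 5 other CA3 genes, 4 were higher and 1 lower (median 0.89), with the kainate receptor subunit *Grik4* higher by 1.79 ± 0.05 (adjusted p = 2.66e-08) and the synaptic scaffold *Homer3* by 2.86 ± 0.10 (adjusted p = 9.64e-08). The lower one was *Coch*, chosen here after its values were seen, at 12.3 to 13.9 FPKM in cortex IR and 1.73 to 3.55 in hippocampus IR.

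Of 3 further hippocampal pyramidal genes, 2 were higher (median 1.36), beside 23.7% of all genes. Among them *Neurod6* was higher by 1.36 ± 0.06 (adjusted p = 3.89e-07), whereas *Dkk3*, a secreted protein of the Dickkopf family, was at 127 to 131 FPKM in cortex IR and 117 to 139 in hippocampus IR (-0.03 ± 0.06, adjusted p = 0.709). Dentate granule genes were higher in 3 of 4 (median 1.83, and 2.73 over all 7 of the list, as a description) and cortical layer genes lower in 5 of 7 (median -1.27). The shares of all genes called were 23.7% higher and 23% lower.

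In the cortex, irradiation was not followed by a detected change in any field marker. Of the 8 markers tested there, 0 passed limma at an adjusted p under 0.05, and 0 at an unadjusted p under 0.05, beside 0.725% and 14.1% of the 14065 genes tested. *Iyd* was under the filter in the cortex. Con and IR overlapped for all 9, while 9.09% of genes tested had every IR library below every Con library and 11.2% had every IR library above. With 3 against 3 libraries an exact permutation test of a single gene cannot go below p = 0.1. This comparison shares the cortex IR libraries with the tissue test, and the cortex Con libraries with the Con comparison of the tissues behind the list.

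The 95% intervals were narrow for 5 of the 8 markers. For *Mpped1* the log2 difference, IR minus Con, was 0.02 ± 0.05 (95% interval -0.10 to 0.13, adjusted p = 0.929 from limma). *Man1a* was at 0.10 ± 0.08 (-0.09 to 0.28, adjusted p = 0.643), *Pou3f1* at 0.08 ± 0.11 (-0.16 to 0.31, adjusted p = 0.789), *Amigo2* at -0.06 ± 0.09 (-0.26 to 0.15, adjusted p = 0.829) and *Bok* at -0.05 ± 0.11 (-0.30 to 0.21, adjusted p = 0.889). The intervals were wide for *Wfs1*, -0.41 ± 0.31 (-1.20 to 0.38, adjusted p = 0.624), for *Fibcd1*, 0.18 ± 0.26 (-0.43 to 0.78, adjusted p = 0.818) and for *Spink8*, 0.40 ± 0.47 (-0.77 to 1.56, adjusted p = 0.764). *Wfs1* has the wide spread over cortex libraries described above, and *Fibcd1* and *Spink8* have cortex levels of a few FPKM or less. *Amigo2*, at 2.00 to 2.44 FPKM in the cortex, had a narrow interval, and what set the widths was not tested.

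In the hippocampus, *Man1a* and *Pou3f1* were lower in every IR library than in any Con library, and the other 7 markers overlapped. The *Man1a* mean was 17.0 ± 1.40 FPKM in Con and 10.4 ± 1.31 in IR (SD, n = 3), a Con to IR ratio of 1.64 and a log2 difference of -0.66 ± 0.10, rank 57 in size of 14043 genes. The *Pou3f1* mean was 34.3 ± 1.64 in Con and 23.7 ± 5.60 in IR, a ratio of 1.45 and a log2 difference of -0.54 ± 0.14, rank 138. Of the 9 genes, 0 passed an adjusted p under 0.05 and 2 passed an unadjusted p under 0.05, beside 0.0285% and 13.9% of all genes. The 2 without overlap stand beside 9.36% of genes lower without overlap, and 0 of 9 were higher without overlap beside 10.5%. These genes were listed with this comparison known, so the counts are descriptions only. Without hippocampus Con 2 and IR 1, the libraries rich in choroid plexus RNA, the difference was -0.66 for *Man1a* and -0.40 for *Pou3f1*.

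The other CA1 markers gave -0.34 ± 0.18 for *Wfs1*, -0.15 ± 0.11 for *Mpped1*, -0.05 ± 0.08 for *Fibcd1* and 0.12 ± 0.14 for *Spink8*. The CA2/CA3 markers gave -0.01 ± 0.10 for *Amigo2*, 0.07 ± 0.13 for *Bok* and 0.03 ± 0.16 for *Iyd*. The median over the 6 CA1 markers was -0.25 and over the 3 CA2/CA3 markers 0.03, beside -0.01 over all genes. *Fibcd1* and *Spink8*, with the highest ratios of hippocampus to cortex among the CA1 markers, overlapped between Con and IR, and the 6 CA1 markers ranged from -0.66 to 0.12.

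**Figure D3:**
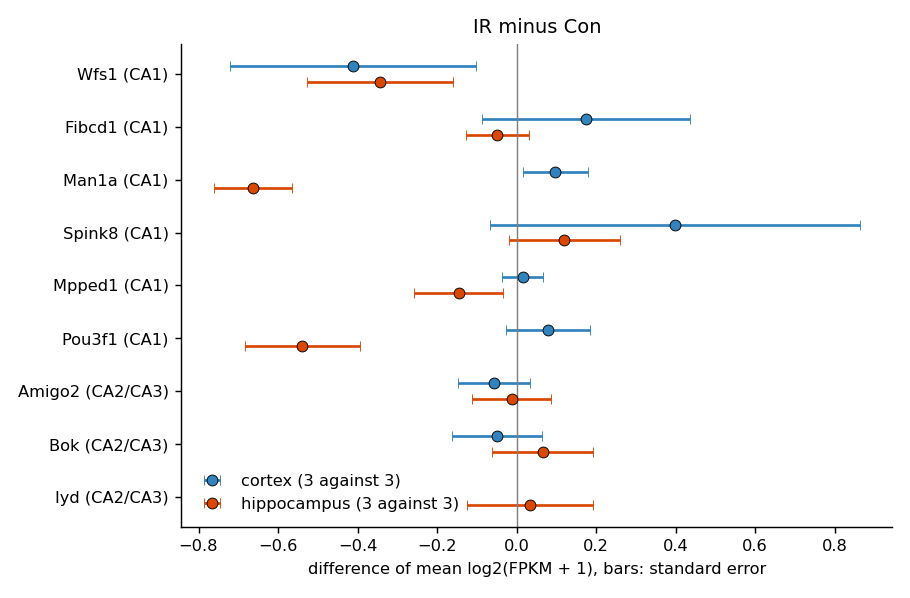
Difference between IR and Con for the 9 field markers (horizontal axis, difference of mean log2(FPKM + 1); bars, standard error; 3 against 3 libraries) in cortex and hippocampus. *Man1a* and *Pou3f1* lie at -0.66 and -0.54 in the hippocampus and at 0.10 and 0.08 in the cortex, where *Iyd* was under the filter and has no point.

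The difference between the tissues in the response, hippocampus minus cortex, was -0.76 ± 0.13 for *Man1a* and -0.62 ± 0.20 for *Pou3f1* in a fit over the 12 libraries. It contains the hippocampus comparison of the list and so is a description as well. Of the 9 genes, 0 passed at an adjusted p and 2 at an unadjusted p under 0.05, beside 0.0823% and 10.3% of 14577 genes. In the tissue values themselves, *Man1a* was at 9.38 to 11.9 FPKM in hippocampus IR, still above the 5.42 to 5.72 of cortex IR, while *Pou3f1* in hippocampus IR 1 (18.9) was below its highest cortex IR value (19.8).

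The IR libraries of the hippocampus were not alike. All 6 CA1 markers were lowest in IR 1 and highest in IR 3 among the 3 IR libraries, and 5 of 6 were lowest in IR 1 among all 6 hippocampus libraries. Among the Con libraries 5 of the 6 were lowest in Con 2. The summed FPKM of the 5 choroid plexus genes was 1650 in IR 1 and 1060 in Con 2, and 22.6 to 66.0 in the other 4 hippocampus libraries, and its part in these orders was not tested. IR 1 and IR 2 were both below every Con library for 4 of the 6, *Wfs1*, *Man1a*, *Pou3f1* and *Mpped1*, of which *Mpped1* was so by a small margin (51.8 in IR 2 against 51.9 in Con 2). Taken as log2(FPKM + 1) minus its Con mean, the median of the 6 was -0.48 in IR 1, -0.33 in IR 2 and 0.06 in IR 3. It was -0.14 to 0.08 in the Con libraries. For the CA2/CA3 markers it was 0.06, 0.12 and -0.01 in IR, and -0.16 to 0.21 in Con. Over the 6 hippocampus libraries, Pearson r on log2(FPKM + 1) was above 0.5 for 12 of 15 pairs of CA1 markers. It was negative for all 18 pairs of a CA1 with a CA2/CA3 marker, and the source of this was not tested.

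**Figure D4:**
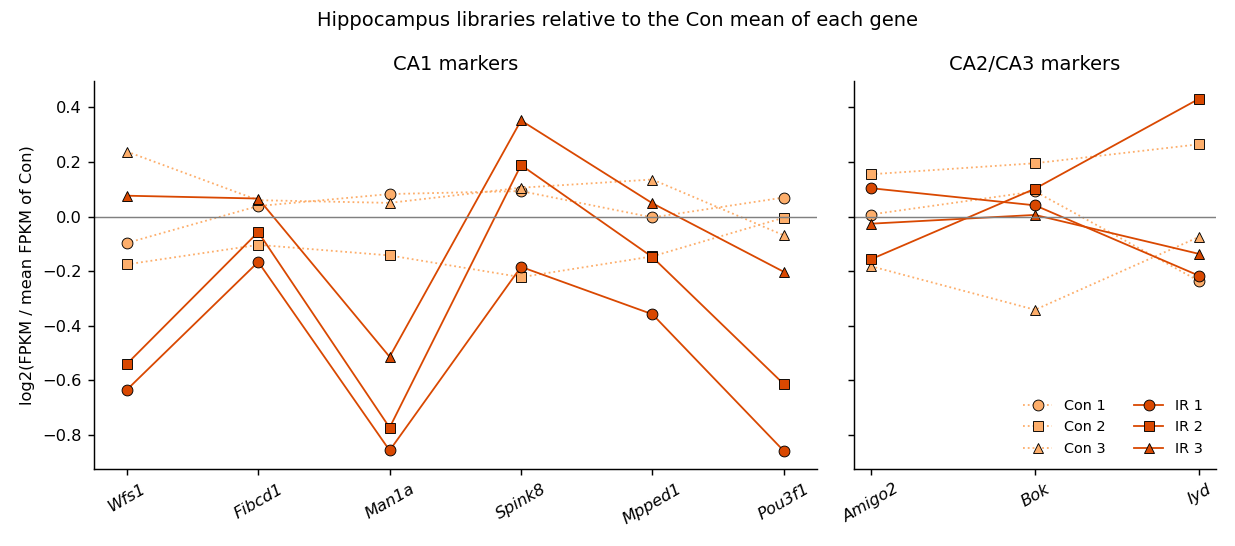
Level of each field marker in the 6 hippocampus libraries relative to the Con mean of the gene (vertical axis, log2 ratio of FPKM; lines join the genes of a library; dotted and light, Con; solid and dark, IR). IR 1 and IR 2 lie low for *Wfs1*, *Man1a* and *Pou3f1*, IR 3 lies near or above 0 for every CA1 marker but *Man1a* and *Pou3f1*, and the CA2/CA3 markers show no such split.

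In marker lists of other cells, 0 genes passed an adjusted p between Con and IR in the hippocampus, beside 0.0285% of all genes. Levels of the listed genes are given for each group. The summed FPKM of 7 dentate granule genes was 96.9 to 119 in hippocampus Con and 124 to 130 in IR, and all 7 had a higher IR mean on the log2 scale (median 0.26). *Prox1* was at 14.4, 16.6 and 16.7 in Con and 21.1, 18.8 and 19.6 in IR (adjusted p = 0.247 from limma), and *C1ql2*, a secreted synapse protein, at 70.7, 57.8 and 43.6 and 56.2, 65.7 and 60.5. The sum of 3 microglia genes (*Cx3cr1*, *P2ry12* and *Tmem119*) was 36.3 to 39.1 in Con and 28.0 to 30.8 in IR, with 3 of 3 lower without overlap, beside the 9.36% of all genes given above. The sum of 4 thalamus genes was 27.4 in IR 1 and 14.6 to 18.5 in the other 5 libraries, and that of 3 astrocyte genes was 123 to 129 in Con and 111 to 116 in IR. Of the astrocyte genes 2 of 3 were lower without overlap, and *Aqp4*, the water channel of astrocytes, differed by -0.02 ± 0.14. Inhibitory neuron genes were lower without overlap in 2 of 3 and oligodendrocyte genes in 1 of 3, where *Mog*, a myelin protein chosen here after its values were seen, was at 20.0, 17.1 and 19.7 in Con and 15.7, 15.4 and 14.2 in IR (adjusted p = 0.247 from limma). The sum of 3 oligodendrocyte genes was 923 to 1110 in Con and 1100, 960 and 857 in IR 1, IR 2 and IR 3. The sum of 8 cortical layer genes was highest in Con 3, at 69.5, and 52.0 to 56.3 in the others. The part of any of these in the differences of *Man1a* and *Pou3f1* was not tested.

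Other field genes in the hippocampus gave 0 calls between Con and IR at an adjusted p under 0.05, beside 0.0285% of all genes. With a share so low, 0 calls do not show that these genes were unchanged. At an unadjusted p under 0.05 the share of all genes was 13.9%. The 7 other CA2 genes had a median of -0.04, with 0 past an unadjusted p under 0.05, and the 5 other CA3 genes a median of 0.15, also with 0. *Necab2* was at 48.6, 49.3 and 46.2 FPKM in Con and 55.4, 52.7 and 51.2 in IR, and *Pcp4* at 160, 143 and 126 in Con and 151, 184 and 149 in IR. *Grik4* was at 31.1, 30.2 and 22.0 in Con and 29.4, 30.9 and 30.7 in IR, with Con 3 the lowest library as for *Bok*. *Homer3* was also lowest in Con 3, at 21.0. Among 4 further pyramidal genes 1 passed an unadjusted p, *Lefty1*, a secreted inhibitor of Nodal signalling chosen here after its values were seen, at 6.74, 6.64 and 5.08 in Con and 4.03, 4.29 and 5.12 in IR (log2 difference -0.38 ± 0.12, adjusted p = 0.288 from limma).

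The genes most like each set were found by Pearson r with the mean standardized level of the set, among 12939 other genes with a mean of at least 1 FPKM. For the CA1 set over 12 libraries they were *Inhbb* (r = 0.97), *Sh3bp4* (0.96), *Tubb2b* (0.94), *Ndst4* (0.93) and *Wbp1l* (0.93). With tissue means removed they were *Ankrd63* (0.92), *Inhbb* (0.89), *Arhgap12* (0.89), *Sh3bp4* (0.89) and *Trpc4* (0.87). *Inhbb*, the beta B subunit of inhibins and activins, was at 3.45, 3.50 and 3.32 FPKM in hippocampus Con and at 2.33, 2.34 and 3.24 in IR, so IR 3 was close to Con and IR 1 and IR 2 were low. The libraries share tissue and treatment, and these values are descriptions.

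For the CA2/CA3 set over 12 libraries the most alike were *Rerg* (0.996), *Ermp1* (0.995), *Csnk1g1* (0.994), *Hpca* (0.994) and *Ppfia2* (0.993), all higher in the hippocampus than in the cortex in every library. *Hpca*, the calcium sensor hippocalcin, was at 329 to 407 FPKM in the cortex and 1110 to 1500 in the hippocampus. *Rerg*, a small GTPase, was at 2.00 to 3.24 in the cortex and 11.6 to 17.2 in the hippocampus, lowest there in Con 3 as *Bok* was. With tissue means removed they were *Itfg2* (0.92), *Aifm1* (0.91), *Dr1* (0.90), *Brcc3* (0.88) and *Mon1b* (0.86), and *Aifm1* was likewise lowest in hippocampus Con 3, at 8.19 FPKM against 9.76 to 12 in the other 5.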

How the data were processed

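RNA from 2 tissues of Con and IR mice was analysed in 12 libraries, grouped by their labels. The authors trimmed the reads, aligned them with TopHat, estimated FPKM with Cufflinks and applied a geometric normalization, and the deposited FPKM were used as they are. The labels name the build mm10. The annotation is not given in the sources used here. The labels name Trizol and total RNA, whereas the methods name an RNeasy kit and poly(A) selection, and a different selection would alter which transcripts are counted.

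The 9 genes and the marker lists were chosen with earlier results of these data known. Genes with at least 0.5 FPKM in 3 libraries of a fit were tested on log2(FPKM + 1) with limma 3.58.1 (trend and robust prior, 2-sided) in R 4.3.3, each fit holding the groups compared and the interaction all 12 libraries, with Benjamini-Hochberg adjustment over all genes tested and calls at 0.05. The steps were tested on simulated data. Named genes were the 9, the 2 most abundant of a list in hippocampus Con and the 5 most alike, and genes outside this rule are marked in the text as picked with their values known. Positions and promoters came from GENCODE M21 and RefSeq, figures from matplotlib 3.10.9 in Python 3.11.15. Alternatives were no filter, quantile normalization, a pseudocount of 0.1, a minimum of 1 FPKM per library, limma without trend or robust prior, the library number as a block, a fit of all 12 libraries and each library left out. Leaving out the libraries rich in choroid plexus RNA was added after the data were seen.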

Additional observations from a re-analysis of the deposited data

How the results depend on the processing

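The calls of hippocampus against cortex in IR libraries on *Fibcd1*, *Man1a*, *Spink8*, *Amigo2*, *Bok* and *Mpped1* held under every alternative run. *Iyd* was under the filter when a hippocampus library was left out or 1 FPKM was required in every library. In the 2 tested comparisons, *Pou3f1* between the tissues passed under 2 alternatives and signs turned in 7 values of IR against Con in the cortex and 1 between the tissues. In the described comparisons, signs turned in 2 values in Con between the tissues (*Wfs1*), 8 of IR against Con in the hippocampus (*Amigo2*, *Bok*, *Fibcd1* and *Iyd*) and 20 of the interaction. With each library left out in turn, *Wfs1* between the tissues in IR ranged from -0.046 to 0.406, and IR against Con in the cortex ranged from -0.053 to 0.437 for *Fibcd1*, from -0.012 to 0.044 for *Mpped1*, from -0.018 to 0.188 for *Pou3f1*, from -0.133 to 0.076 for *Bok*, from 0.026 to 0.145 for *Man1a*, from -0.102 to -0.009 for *Amigo2*, from 0.021 to 0.784 for *Spink8* and from -0.665 to -0.252 for *Wfs1*. Quantile normalization gave -0.007 for *Mpped1* in the cortex. In the hippocampus IR against Con ranged from -0.558 to -0.213 for *Wfs1*, from -0.244 to -0.045 for *Mpped1*, from 0.009 to 0.265 for *Spink8*, from -0.093 to 0.17 for *Bok* and from -0.711 to -0.394 for *Pou3f1*.

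Counts over all genes moved more, and the cause was not tested. For IR against Con in the cortex 102 genes were called, 24 without the filter, 22 without trend or robust prior, 29 without the library rich in choroid plexus RNA and 16 to 78 with a library left out. In the hippocampus 4 were called, 2 with at least 1 FPKM in every library, 73 with all 12 libraries in a fit, 0 without the libraries rich in choroid plexus RNA and 0 to 880 with a library left out, the 880 without hippocampus Con 3. Among the markers 0 were called there, and 1 with all 12 libraries or without hippocampus Con 3, so 0 to 1 with a library left out. For the interaction 12 were called, 7 without the filter, 19 with at least 1 FPKM in every library, 0 without trend or robust prior, 0 without the libraries rich in choroid plexus RNA and 0 to 480 with a library left out. Among the markers 0 were called, and 1 with at least 1 FPKM in every library, with quantile normalization, and without hippocampus Con 3 or IR 3, a range of 0 to 1. As the list was drawn up with these comparisons known, the counts of markers are descriptions.

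With the library number as a replicate block, the hippocampus count was 1 and the interaction count 0, and the calls on markers in the tested comparisons did not change. Deviations of libraries with the same number correlated by -0.081 to 0.199 between the tissues. Between Con and IR, which hold different mice, they correlated by -0.393 to 0.108. With 3 libraries per group this cannot tell whether a number marks the same mouse in both tissues. That is not stated either, and the numbers were not used as pairs. Depth in reads is unknown, so no counting error is given for low values such as those of *Iyd*.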
